A study of Mus musculus with 16 samples.

Results

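FMRP is the RNA-binding protein that is lost in fragile X syndrome. Fmr1, which encodes it, was followed together with its paralogs Fxr1 and Fxr2 and with 7 genes for proteins that bind FMRP or share its RNA-protein particles, in adult neural stem cells with and without Fmr1. The 7 partner genes were Cyfip1, Cyfip2, Nufip1, Nufip2, Caprin1, G3bp1 and Mov10. The members were chosen by symbol, and each of the 10 was a row of the count table, among 20409 genes in all. Ribosome footprints, pieces of mRNA shielded by a ribosome during nuclease digestion, and cytoplasmic RNA were sequenced from KO cultures (Fmr1 -/y) and from cultures of WT littermates. Each of the 4 groups, KO footprints, KO RNA, WT footprints and WT RNA, held 4 libraries. The 16 libraries came from 8 cultures of independently isolated cells, so that a culture gave 1 footprint and 1 RNA library from a single lysate. Cells of both genotypes came from dentate gyri of FVB/N males aged 8 to 10 weeks, grown with EGF and FGF-2 at 20 ng/ml each, and harvested after 10 min in cycloheximide (100 µg/ml), which stalls ribosomes. The KO is of the whole animal; the labels name neither the allele nor any pooling of animals. The study's title asks how FMRP discriminates among mRNAs in these cells, and the values below ask whether its own family and partners differed without it.

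FMRP binds mRNAs and ribosomes and is known as a repressor of translation in neurons and neural progenitors. FXR1 and FXR2 share its RNA-binding domains and can form complexes with it. CYFIP1 and CYFIP2 bind FMRP and also sit in the WAVE complex, which drives actin branching under the GTPase RAC1. CYFIP1 also binds the cap-binding protein eIF4E. NUFIP1 and NUFIP2 were named as nuclear FMRP-interacting proteins, and NUFIP1 helps to assemble box C/D small nucleolar RNPs. CAPRIN1 and G3BP1 bind each other and build stress granules, and MOV10 is an RNA helicase that works with Argonaute proteins and with UPF1.

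The promoters of the 3 paralogous genes are shown because the results turn on the loss of one of them and on the levels of the others. They are RefSeq sequences of GRCm38.p6, the assembly of mm10, from 250 bases before to 50 after the annotated start, read in the direction of transcription. The Fmr1 window is chrX:68678291-68678590 (plus strand), the Fxr1 window chr3:34019829-34020128 (plus strand) and the Fxr2 window chr11:69632721-69633020 (plus strand). Capitals mark matches, on either strand, to the letters GCGCATGCG (bound by NRF1), CACGTG (the E-box) and GGGCGG (the GC box).
Fmr1: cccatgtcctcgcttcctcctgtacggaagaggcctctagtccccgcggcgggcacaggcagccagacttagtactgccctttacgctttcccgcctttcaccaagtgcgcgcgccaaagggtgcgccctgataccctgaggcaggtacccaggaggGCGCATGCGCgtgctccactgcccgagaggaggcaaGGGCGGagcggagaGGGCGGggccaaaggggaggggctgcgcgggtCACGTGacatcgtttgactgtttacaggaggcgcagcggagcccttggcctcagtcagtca
Fxr1: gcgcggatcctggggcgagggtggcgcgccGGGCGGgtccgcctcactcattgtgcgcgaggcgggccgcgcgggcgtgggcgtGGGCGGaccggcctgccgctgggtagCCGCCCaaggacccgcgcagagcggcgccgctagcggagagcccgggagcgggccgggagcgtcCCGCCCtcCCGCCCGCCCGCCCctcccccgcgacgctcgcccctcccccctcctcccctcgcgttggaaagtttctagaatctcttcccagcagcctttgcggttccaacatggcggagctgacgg
Fxr2: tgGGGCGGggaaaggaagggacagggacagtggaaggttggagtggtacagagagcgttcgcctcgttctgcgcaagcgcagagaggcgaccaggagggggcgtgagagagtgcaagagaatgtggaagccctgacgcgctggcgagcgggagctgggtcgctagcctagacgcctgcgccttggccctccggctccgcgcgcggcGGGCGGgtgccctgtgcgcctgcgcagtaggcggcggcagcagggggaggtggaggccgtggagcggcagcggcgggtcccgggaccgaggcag
The Fmr1 window held 1 match to the NRF1 letters, which are nearly their own reverse complement so that the capitals run over both strands' matches, 1 E-box and 2 GC boxes. The Fxr1 window held 5 GC boxes and the Fxr2 window 2, counting overlapping matches once, and neither held the NRF1 letters or the E-box. The GC content was 65.7% for Fmr1, 76.3% for Fxr1 and 71.3% for Fxr2. Of 27025 RefSeq mouse promoters of this length, 1.77% held the NRF1 letters, 7.09% the E-box and 35.6% the GC box. Windows were at hand for 9 members, of which 7 held a GC box and 1, Fmr1, held the NRF1 letters and the E-box. CCAAT was in 3 of the 9 (37.8% of all promoters) and TATAAA in 1 (14.1% of all promoters). These are matches of letters, not measured binding sites.

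Fmr1 lies on chromosome X from 68678536 to 68717963 in mm10, Fxr1 on chromosome 3 from 34020058 to 34069980 and Fxr2 on chromosome 11 from 69632971 to 69653297. Cyfip1 lies on chromosome 7 from 55842022 to 55932633 and Cyfip2 on chromosome 11 from 46193849 to 46312859. Nufip1 lies on chromosome 14 from 76110891 to 76137379 and Nufip2 on chromosome 11 from 77685764 to 77717966. Caprin1 lies on chromosome 2 from 103762945 to 103797669, G3bp1 on chromosome 11 from 55469657 to 55500888 and Mov10 on chromosome 3 from 104794828 to 104818619. All are protein-coding genes. The annotated spans of Fxr1, Cyfip1, Cyfip2 and Caprin1 overlap those of Dnajc19, Nipa2, Fndc9 and Nat10, in that order. These spans include introns, and whether any exons overlap was not examined. The labels do not say whether strand was used in counting, so reads from any shared exon might not be told apart between the genes.

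A footprint library held 9430732 to 17220236 estimated counts and an RNA library 5343042 to 6600023. Levels are given as CPM, counts normalised to library size, and between genes as TPM, which also divides by transcript length. Each of the 8 neural stem and progenitor markers was above 0 TPM in every KO library, and in WT only Hes5, a Notch target, was at 0, in 1 footprint library. The summed level of these markers ran from 6055 to 12370 TPM in KO footprints, against 8569 to 16148 TPM in WT footprints, and from 2868 to 7004 TPM in KO RNA, against 3768 to 8158 TPM in WT RNA. The oligodendrocyte-lineage factor Olig2 was high, at 404 to 490 TPM in KO footprints and 362 to 526 TPM in WT footprints, while Mog, a marker of mature oligodendrocytes, was at 0 in both. The 3 microglial markers were at 0 TPM in every KO library and in every WT footprint library, and summed to at most 4 TPM in WT RNA. The 3 endothelial markers summed to at most 1 TPM in KO RNA and to 0 in the other groups. Neuronal markers summed to 3 to 49 TPM in KO footprints, against 4 to 29 TPM in WT footprints. Astrocyte markers summed to 37 to 272 TPM in KO footprints, against 16 to 572 TPM in WT footprints. In RNA, neuronal markers summed to 0 to 4 TPM in KO and 1 to 45 TPM in WT. Astrocyte markers summed to 24 to 180 TPM in KO RNA and 14 to 455 TPM in WT RNA. The neuronal marker Syt1 stood at 1, 31, 1 and 0 TPM in replicates 1 to 4 of WT RNA. In KO RNA, Syt1 stood at 1, 0, 0 and 0 TPM, and its part in the member levels was not tested. In such bulk samples, fewer cells of a type and less RNA per cell cannot be told apart.

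Fmr1 footprints fell in the KO cultures, and Fmr1 was the single member to change past the threshold between the genotypes. Its footprints stood at 24.1, 27.0, 12.7 and 14.7 CPM in KO replicates 1 to 4, against 129, 149.8, 149.4 and 148.7 CPM in WT replicates 1 to 4. Every KO library lay below every WT library. The fitted level was 0.131-fold that of WT (95% interval 0.0914 to 0.187). In estimated counts, 137 to 454 were assigned to Fmr1 in a KO footprint library and 1375 to 1970 in a WT one. The log2 fold change was -2.93 (SE 0.22, edgeR quasi-likelihood adjusted p = 0.014). Across all 11472 genes tested, 4 passed in either direction (0.0349%), of which 3 were higher in KO (0.0262%) and 1, Fmr1 itself, was lower (0.00872%). Genes whose KO and WT footprint ranges did not overlap made up 1.88% of those tested, and Fmr1 was the 1 member among them. With replicate number added as a block, the log2 fold change was -2.93 and the adjusted p was 0.143. The adjusted p lay between 0.00897 and 0.134 when single cultures were left out, and passed the threshold without KO 3, KO 4 or WT 1 but not without KO 1 (0.134), KO 2 (0.0565), WT 2 (0.0589), WT 3 (0.076) or WT 4 (0.0735).

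**Figure D1:**
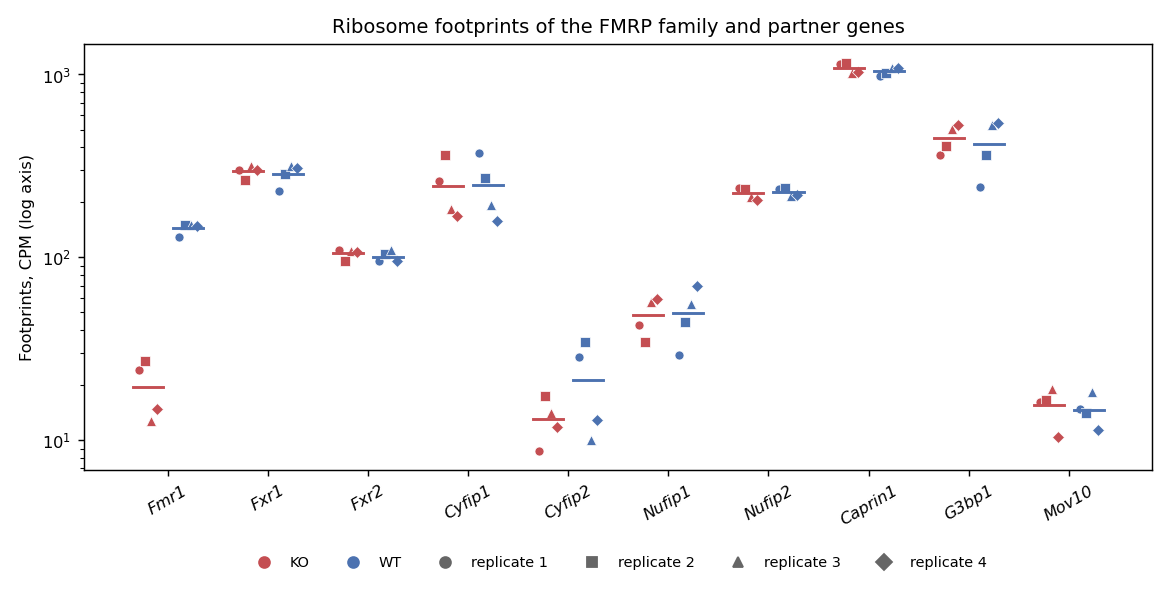
Ribosome footprints of the 10 members in CPM (log axis), with KO libraries in red to the left and WT libraries in blue to the right of each gene. Points are libraries, shaped by replicate number, and bars are means of 4; the KO points of Fmr1 sit between 12.7 and 27.0 CPM, below the WT points at 129 to 149.8 CPM, while the ranges of the other members overlap.

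In all 4 pairs of the same number, Fmr1 RNA was lower in KO, but it did not pass the test. It stood at 8.64, 30.9, 10.7 and 3.35 CPM in KO RNA, against 40.9, 106.8, 37.3 and 27.4 CPM in WT RNA. The second replicate was the highest of its genotype on both sides, and KO replicate 2 lay above WT replicate 4, so the ranges overlapped. The log2 fold change was -1.99 (SE 0.67, unadjusted p = 0.0148 and adjusted p = 1 by edgeR's quasi-likelihood test), with a 95% interval from -3.49 to -0.49. With the replicate block it was -2.17 (adjusted p = 0.114). In RNA, 1 gene of 11097 passed (0.00901%), 208 had an unadjusted p under 0.05, and none of the 10 members passed by edgeR, DESeq2 or limma-voom. The 208 are fewer than the share of about 0.05 expected with no true differences. The edgeR RNA test was thus conservative, and its lack of calls does not show equal RNA levels. Fmr1 was the 1 member with an unadjusted p under 0.05. Ranges that did not overlap between KO and WT RNA made up 1.28% of genes and 0 of the 10 members.

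Fxr1 and Fxr2 footprints were close in level in the 2 genotypes, and the intervals bound how large a difference these data leave room for. Fxr1 footprints stood at 299.9, 266, 315 and 301 CPM in KO, against 231, 285, 314.5 and 309 CPM in WT. Fxr2 footprints stood at 110.1, 95.8, 108 and 107 CPM in KO, against 95.9, 104, 109 and 94.9 CPM in WT. For both genes the ranges overlapped and KO was higher in 2 of 4 pairs. The log2 fold change was 0.06 for Fxr1 (SE 0.12, 95% interval -0.22 to 0.33) and 0.06 for Fxr2 (SE 0.11, -0.19 to 0.31), with an edgeR adjusted p of 0.999 for each. A rise of either paralog's footprints beyond 1.26-fold was thus outside the interval.

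The RNA of the paralogs was measured less precisely. Fxr1 RNA stood at 45.7, 104.7, 57.3 and 33.2 CPM in KO, against 52.8, 124.8, 68.1 and 44.5 CPM in WT, lower in KO in each pair, with replicate 2 the highest in both genotypes. Fxr2 RNA stood at 167, 114, 156 and 169 CPM in KO, against 121, 148, 149 and 159.9 CPM in WT. The Fxr2 pattern was the other way round in KO, where replicate 2 was the lowest library. The log2 fold changes were -0.27 (SE 0.42) for Fxr1 and 0.07 (SE 0.20) for Fxr2, neither of which passed (edgeR adjusted p = 1). Without WT replicate 2 the Fxr1 RNA value was 0.13.

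Per transcript length, Fxr1 carried most of the footprints of the family in both genotypes. Fmr1, Fxr1 and Fxr2 together summed to 228, 201, 209 and 212 TPM in KO footprints, against 256, 275, 269 and 255 TPM in WT footprints. The KO sums, at 212.5 ± 11.3 TPM, lay below the WT sums, at 264 ± 9.84 TPM (SD, n = 4 each). Fmr1 made up 2.87% to 6.97% of the sum in KO and 26.0% to 27.7% in WT. Fxr1 and Fxr2 alone summed to 202.5 ± 11.6 TPM in KO and to 192.5 ± 7.55 TPM in WT, and these ranges (187 to 215 and 185 to 199 TPM) overlapped. In RNA, Fmr1 made up 2.0% to 13.2% of the family sum in KO and 12.7% to 29.6% in WT. The table rounds TPM to whole numbers, and no test was run on these sums.

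Neither CYFIP gene passed between the genotypes, although Cyfip2 gave the largest difference among the members after Fmr1. Cyfip2 RNA stood at 31.5, 49.1, 11.2 and 15.7 CPM in KO, against 79.0, 115, 30.5 and 27.9 CPM in WT. It was lower in KO in each of the 4 pairs, but replicates 1 and 2 were higher than 3 and 4 on both sides and the ranges overlapped. The RNA log2 fold change was -1.23 (SE 0.58, unadjusted p = 0.0623, edgeR adjusted p = 1), and lay between -1.69 without KO replicate 2 and -0.77 without WT replicate 2. Cyfip2 footprints stood at 8.72, 17.5, 14.0 and 11.8 CPM in KO, against 28.4, 34.5, 10.0 and 12.9 CPM in WT. The 2 higher WT values were those of replicates 1 and 2, and WT replicates 3 and 4 lay within the KO range. The footprint log2 fold change was -0.56 (SE 0.35, adjusted p = 0.999) over all libraries, -1.25 with replicates 1 and 2 alone and 0.16 with replicates 3 and 4 alone.

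Per length, Cyfip1 was more abundant than Cyfip2 in footprints, at 58.5 against 3.00 TPM in KO and 60.0 against 5.00 TPM in WT, and it moved with the replicate number. Its footprints stood at 260.4, 364, 183 and 169 CPM in KO, against 372, 270.0, 193 and 158 CPM in WT. Its RNA stood at 375, 409, 263 and 213 CPM in KO, against 491, 376, 222 and 235 CPM in WT. In both assays replicates 1 and 2 lay above replicates 3 and 4 in each genotype. The log2 fold changes of KO over WT were -0.02 (SE 0.16) in footprints and -0.07 (SE 0.32) in RNA, with edgeR adjusted p of 0.999 and 1. Of 4 astrocyte markers, 3 (Gfap, Aldh1l1 and S100b) were also higher in footprints of replicates 1 and 2 in both genotypes, with Gfap at 31, 111, 10 and 6 TPM in KO and 101, 135, 3 and 2 TPM in WT. The other, Aqp4, went the opposite way in KO, at 1, 2, 5 and 5 TPM, against 5, 1, 0 and 0 TPM in WT. The markers' part in the Cyfip values was not tested.

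Of 8 other genes of the WAVE pathway, none passed between the genotypes in footprints or RNA by edgeR, DESeq2 or limma-voom, and none had an unadjusted p under 0.05. The smallest footprint p was that of Wasf3, a WAVE-family nucleation factor, with a log2 fold change of -0.52 (SE 0.25, edgeR adjusted p = 0.999). The smallest RNA p was that of Abi2, an adaptor of the complex, with -0.33 (SE 0.28, adjusted p = 1). The median log2 fold change of the 8 was -0.09 in footprints and -0.20 in RNA, beside 0.01 over all genes tested in each.

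Caprin1 had the highest footprint level of the 10 members per length and did not differ between the genotypes by more than its spread. Caprin1 footprints stood at 1142, 1149.9, 1024 and 1029 CPM in KO, against 986, 1019, 1090.5 and 1079 CPM in WT. The KO values were higher in replicates 1 and 2 and lower in 3 and 4, and the log2 fold change was 0.06 (SE 0.11, 95% interval -0.20 to 0.31, edgeR adjusted p = 0.999). Caprin1 RNA stood at 453, 686, 477 and 426 CPM in KO, against 449, 599, 514 and 407 CPM in WT, with a log2 fold change of 0.05 (SE 0.22, adjusted p = 1). Replicate 2 was again the highest RNA library in both genotypes.

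G3bp1 differed more between replicate numbers than between genotypes. Its footprints stood at 362, 406, 501 and 531 CPM in KO, against 242, 364, 529 and 541 CPM in WT. Its RNA stood at 224.5, 211, 299.5 and 343 CPM in KO, against 126, 222, 299.3 and 351 CPM in WT. Replicates 3 and 4 lay above 1 and 2 in both assays, the opposite of Cyfip1. The log2 fold change was 0.15 in footprints (SE 0.16, edgeR adjusted p = 0.999) and 0.11 in RNA (SE 0.32, adjusted p = 1).

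Of 10 other stress granule genes, none passed between the genotypes by edgeR, DESeq2 or limma-voom. Caprin2, the paralog of Caprin1, had the smallest footprint p, with a log2 fold change of 0.42 (SE 0.12, unadjusted p = 0.00912, edgeR adjusted p = 0.764), and was the 1 gene of the list with an unadjusted p under 0.05, beside 527 of all 11472 genes tested. In RNA the smallest p was that of Tial1, which encodes the RNA-binding protein TIAR, with 0.31 (SE 0.24, adjusted p = 1). The median over the list was 0.12 in footprints and 0.07 in RNA.

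The NUFIP genes did not pass in either assay. Nufip1 footprints stood at 42.7, 34.4, 57.1 and 59.4 CPM in KO, against 29.2, 44.5, 55.6 and 70.0 CPM in WT. Nufip1 RNA stood at 22.7, 23.9, 30.9 and 28.5 CPM in KO, against 21.0, 25.2, 31.3 and 27.1 CPM in WT. In both assays replicates 3 and 4 lay above 1 and 2, and the log2 fold change of KO over WT was -0.02 in footprints (SE 0.17) and 0.02 in RNA (SE 0.22). Nufip2 footprints stood at 241, 235, 214 and 206 CPM in KO, against 236, 240.3, 215 and 220.5 CPM in WT. Their log2 fold change was -0.03 (SE 0.10, 95% interval -0.25 to 0.20). Nufip2 RNA stood at 90.8, 155, 100.4 and 77.2 CPM in KO, against 119, 189, 111 and 83.0 CPM in WT, lower in KO in each pair, with a log2 fold change of -0.25 (SE 0.31). The edgeR adjusted p was 0.999 for both genes in footprints and 1 in RNA.

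Of 10 genes of box C/D snoRNP assembly, in which NUFIP1 works, none passed between the genotypes by edgeR, DESeq2 or limma-voom and none had an unadjusted p under 0.05. The smallest footprint p was that of Pih1d1, a subunit of the R2TP chaperone complex, with a log2 fold change of 0.17 (SE 0.14, edgeR adjusted p = 0.999). It also had the smallest RNA p, with 0.25 (SE 0.33, adjusted p = 1). The median over the list was 0.13 in footprints and 0.15 in RNA.

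Mov10 was, with Cyfip2, the least abundant member in footprints per length and was slightly above WT in KO RNA, a difference that did not pass. Mov10 RNA stood at 30.8, 25.4, 35.8 and 30.2 CPM in KO, against 20.6, 22.4, 31.5 and 28.8 CPM in WT. KO was higher in each of the 4 pairs and the ranges overlapped, with a log2 fold change of 0.24 (SE 0.23, 95% interval -0.28 to 0.76, edgeR adjusted p = 1). Mov10 footprints stood at 16.1, 16.6, 18.96 and 10.5 CPM in KO, against 14.8, 14.1, 18.3 and 11.4 CPM in WT, with a log2 fold change of 0.09 (SE 0.23, adjusted p = 0.999). Here KO was higher in 3 pairs.

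Of 9 genes for miRNA silencing factors and UPF1, none passed between the genotypes by edgeR, DESeq2 or limma-voom and none had an unadjusted p under 0.05. The smallest footprint p was that of Tnrc6c, which encodes a GW182 scaffold protein, with a log2 fold change of -0.27 (SE 0.16, edgeR adjusted p = 0.999). The smallest RNA p was that of Ago4, an Argonaute gene, with -0.57 (SE 0.61, adjusted p = 1). The median was 0.00 in footprints and -0.13 in RNA. Of 11 other genes for proteins of FMRP-containing particles, none passed by these tools either. The double-stranded RNA-binding protein gene Stau2 had the smallest p in both assays, with log2 fold changes of -0.27 in footprints (SE 0.17, edgeR adjusted p = 0.999) and -0.16 in RNA (SE 0.23, adjusted p = 1).

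**Figure D2:**
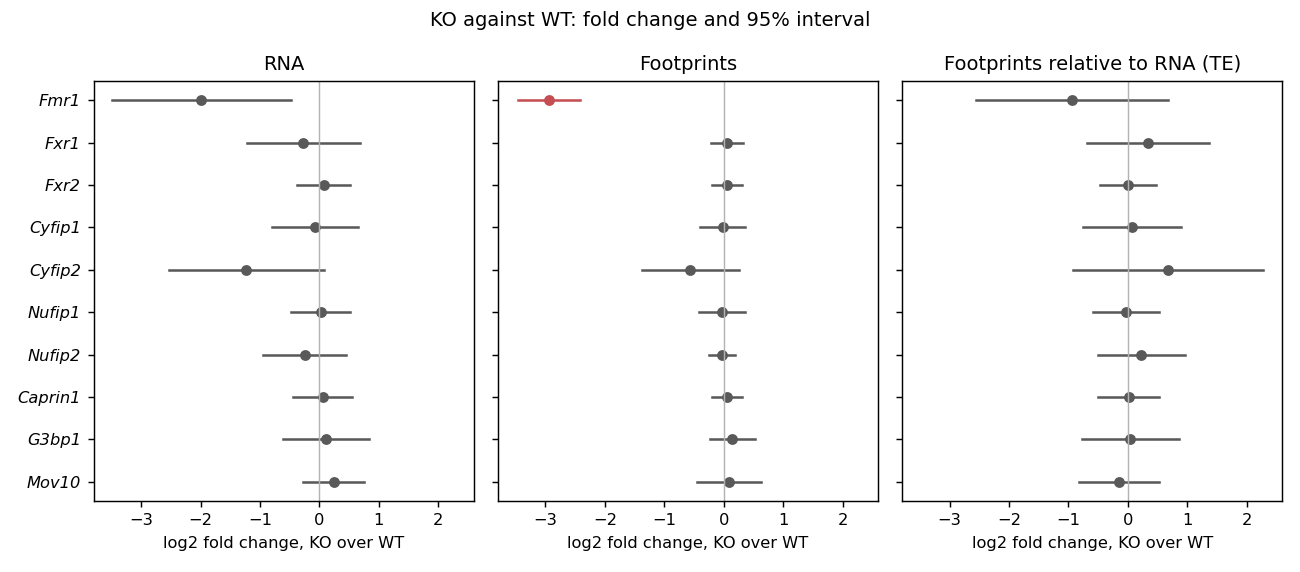
Log2 fold change of KO over WT for each member (points) with its 95% interval (lines) in RNA, in footprints and in footprints relative to RNA. Red marks an edgeR adjusted p under 0.05; this holds for Fmr1 in footprints, at -2.93, and the intervals of the 9 other members cross 0 in every panel.

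Footprints relative to RNA, a measure of translational efficiency (TE), did not pass between the genotypes for any member. The interaction of assay and genotype called 0 of 10863 genes (0%) with edgeR, and 0 with DESeq2 and with limma-voom. By edgeR, 14 genes and 0 of the 10 members had an unadjusted p under 0.05. With no true differences, a share of about 0.05 of all genes would be expected there, far more than 14. The edgeR fit, which held no culture term, was thus conservative, and its lack of calls does not show equal TE. A fit with a culture block also called 0 genes. The Fmr1 value was -0.94 (SE 0.75, 95% interval -2.55 to 0.67, edgeR adjusted p = 1). It lay between -1.62 without WT replicate 2 and -0.25 without KO replicate 2. In single cultures, log2 of footprint CPM over RNA CPM for Fmr1 was 1.48, -0.19, 0.25 and 2.14 in KO, against 1.66, 0.49, 2.00 and 2.44 in WT, so that replicate 2 was the lowest culture of each genotype. Cyfip2 TE lay between 0.25 without KO replicate 3 and 1.13 without KO replicate 2. The intervals of Cyfip2 (0.68, -0.92 to 2.28) and Fxr1 (0.33, -0.69 to 1.36) were also wide. In this fit, Fxr2 (0.00, -0.46 to 0.47), Caprin1 (0.01, -0.51 to 0.53) and Nufip1 (-0.03, -0.59 to 0.53) were held within narrower limits. Its intervals do not use the sharing of a culture by a footprint and an RNA library. In single cultures, G3bp1 TE (SD 0.14 in KO and in WT) and Cyfip1 TE (SD 0.17 in KO, 0.16 in WT) varied less than Caprin1 TE (SD 0.26 in each). The values of Nufip2, Cyfip1, G3bp1 and Mov10 were 0.23, 0.07, 0.04 and -0.14, in that order.

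**Figure D3:**
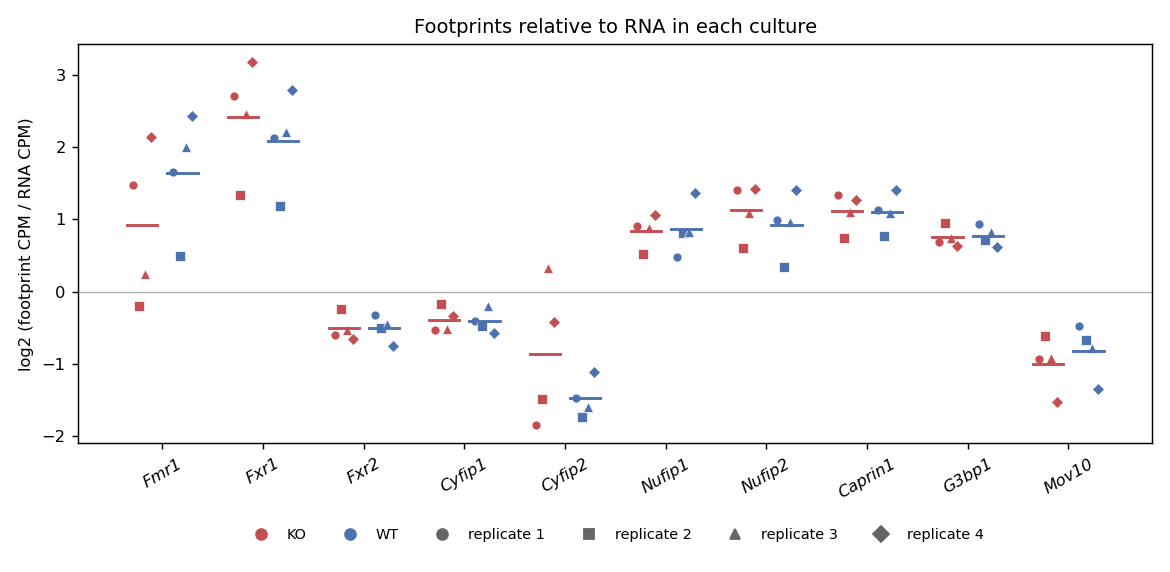
Log2 of footprint CPM over RNA CPM in each culture, KO in red and WT in blue, with replicate number as the shape and bars for means of 4. Each assay was scaled on its own, so the 0 line has no absolute meaning. Fmr1 spans -0.19 to 2.14 in KO and 0.49 to 2.44 in WT; Fxr1, Nufip1, Nufip2, Caprin1 and G3bp1 lie above 0 in all 8 cultures, and Fxr2, Cyfip1 and Mov10 below 0.

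Within WT cultures, 5 of the 10 members had more footprints than RNA relative to the average gene, and none had fewer past the threshold. These contrasts set 2 kinds of library side by side, since footprints and RNA were made by different library methods. Fxr1 had the largest value, with a log2 of footprints over RNA of 2.16 (SE 0.34, edgeR adjusted p = 0.00098), followed by Fmr1 at 1.63 (SE 0.40, adjusted p = 0.00993). Caprin1 stood at 1.27 (SE 0.21, adjusted p = 0.00121), Nufip1 at 1.12 (SE 0.30, adjusted p = 0.0145) and Nufip2 at 1.04 (SE 0.26, adjusted p = 0.0108). Of 11323 genes, 43.1% passed in either direction, 22.2% higher in footprints and 20.9% lower, and the median of the members was 0.99 beside 0.02 over all genes. In the same test, G3bp1 stood at 0.93 (adjusted p = 0.0771), Mov10 at -0.64 (adjusted p = 0.0597) and Cyfip2 at -1.37 (adjusted p = 0.0712). Fxr2, at -0.34 (adjusted p = 0.181), and Cyfip1, at -0.25 (adjusted p = 0.605), did not pass.

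The members near the threshold depended on how the culture was treated. With the culture as a replicate block, G3bp1 was also higher in footprints (0.95, edgeR adjusted p = 8.63e-05), and Cyfip2 (-1.31, 4.11e-05) and Mov10 (-0.64, 0.011) were lower. DESeq2 also called these 2 lower. With the block, 35.9% of all genes were higher in footprints and 33.5% lower. Without WT replicate 3, Fmr1 (adjusted p = 0.0634), Nufip1 (0.0641) and Nufip2 (0.0697) no longer passed. Nufip1 was also lost without WT replicate 2 (0.0657) or 4 (0.0696), and Nufip2 without WT replicate 4 (0.0505). Fxr1 and Caprin1 passed in each of the 4 omissions. In KO cultures, the same contrast gave 2.45 for Fxr1, 1.24 for Caprin1, 1.24 for Nufip2, 1.03 for Nufip1 and 0.90 for G3bp1, all past the threshold, with Mov10 lower at -0.82 (adjusted p = 0.00982), beside 26.6% of all genes higher and 27% lower in that contrast. Fmr1 stood at 0.70 in KO cultures (adjusted p = 0.335). On the per-length scale, the log2 ratio of mean WT footprint to mean WT RNA level in TPM, with no test, was 1.69 for Fxr1, 1.10 for Fmr1, 0.85 for Caprin1, 0.62 for Nufip1 and 0.60 for Nufip2. Each was lower than the log2 fold change on counts, and each of the 10 members kept its sign. Whether Fmr1 differs in this between the genotypes is the interaction given above, which did not pass.

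The same contrast in WT cultures placed the other pathway lists at different sides of the average gene. Of 10 snoRNP assembly genes, 6 were higher in footprints and 0 lower, with Nhp2l1, the gene for the core protein SNU13, at 1.99 (SE 0.42, edgeR adjusted p = 0.00425). The others were Znhit3 (1.88), Znhit6 (1.80), Nop58 (1.64), Rpap3 (1.00) and Pih1d1 (0.99). Of 9 genes for miRNA silencing factors and UPF1, 0 were higher and 4 lower, with Ago1 and Tnrc6c at -1.69 each, Dicer1 at -1.29 and Ago2 at -1.09. DESeq2 and limma-voom also called 6 and 0 in the first of these lists and 0 and 4 in the second. Of 10 stress granule genes, 4 were higher (Ddx3x 1.98, G3bp2 1.48, Tia1 1.14 and Tial1 0.97) and 1, the poly(A)-binding protein gene Pabpc1, lower at -1.20. Of 11 other genes of FMRP-containing particles, 3 were higher (Ncl 2.29, Eif4e 1.63 and Pura 1.01) and 1, Top3b, lower at -0.71. Of 8 WAVE genes, 2 were higher, Brk1 at 4.00 and Rac1 at 1.15, and 0 lower by edgeR, DESeq2 or limma-voom. The Brk1 value rests on only 6 to 22 counts in a WT RNA library. On the per-length scale, each of these genes had a lower log2 ratio, so values above 0 shrank and values below 0 grew in size. Ago1 then stood at -2.06 and Pabpc1 at -1.65, while some values above 0 became much smaller. Brk1 averaged 189.8 TPM in WT footprints and 168 TPM in WT RNA, a log2 ratio of 0.18, and Nhp2l1 averaged 288 TPM in WT footprints and 206 TPM in WT RNA, a log2 ratio of 0.48. With the culture as a replicate block, the counts higher and lower were 7 and 1 for snoRNP assembly, 0 and 5 for silencing and UPF1, 5 and 3 for stress granules, 4 and 2 for FMRP-containing particles and 3 and 2 for WAVE, beside 35.9% higher and 33.5% lower among all genes with that block. The counts without the block stand beside 22.2% higher and 20.9% lower among all genes.

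Per transcript length, the order of the members was led by the stress granule genes in each group. In KO footprints, Caprin1 averaged 475.5 TPM and G3bp1 299 TPM, followed by Fxr1 at 155, Nufip2 at 98.8, Cyfip1 at 58.5, Fxr2 at 47.8, Nufip1 at 30.8, Fmr1 at 10.0, Mov10 at 4.50 and Cyfip2 at 3.00 TPM. In WT footprints, Caprin1 averaged 450.0 TPM and G3bp1 270.2 TPM, followed by Fxr1 at 147.5, Nufip2 at 99.5, Fmr1 at 71.2, Cyfip1 at 60.0, Fxr2 at 45.0, Nufip1 at 30.8, Cyfip2 at 5.00 and Mov10 at 4.25 TPM. In KO the neighbours Cyfip1 and Fxr2, and Mov10 and Cyfip2, had overlapping ranges. In WT the ranges of Fmr1, Cyfip1, Fxr2 and Nufip1 overlapped from neighbour to neighbour, as did those of Cyfip2 and Mov10. Fmr1 thus ranked 8 of 10 in KO footprints and 5 of 10 in WT footprints. In KO its range of 6 to 14 TPM met neither neighbour's. In RNA, Cyfip1 and Fxr2 stood above Fxr1, at 82.5, 77.0 and 35.2 TPM in KO and 89.5, 75.2 and 45.8 TPM in WT, but in WT RNA every pair of neighbours overlapped.

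The replicate number moved several members as much as or more than the genotype did. In RNA, replicate 2 was the highest of 4 libraries in both genotypes for 5 of the 10 members, Fmr1, Fxr1, Cyfip2, Nufip2 and Caprin1, against 18% of all genes. Replicate 2 stood at 4.07-fold the mean of the 3 other libraries for Fmr1 in KO and 3.04-fold in WT. For Fxr1 these values were 2.31 in KO and 2.26 in WT, and for Cyfip2 2.52 in KO and 2.51 in WT. For Nufip2 they were 1.73 in KO and 1.82 in WT, and for Caprin1 1.52 in KO and 1.31 in WT. G3bp1, at 0.729 in KO and 0.859 in WT, and Mov10, at 0.787 in KO and 0.832 in WT, were below the others. Of the 8 neural stem and progenitor markers, the proliferation marker Mki67 was the 1 that was highest in replicate 2 RNA in both genotypes, at 22, 89, 14 and 7 TPM in KO and 7, 24, 13 and 6 TPM in WT, and its part in the result was not tested. Nes RNA was lowest in replicate 2 in KO, at 344 TPM beside 390 to 452 TPM. In WT it was highest in replicate 2, at 473 TPM beside 317 to 460 TPM. Vim, Pax6, Fabp7 and Sox2 RNA were highest in replicate 2 in KO but in replicate 1 in WT, by TPM. For Sox2 in KO the lead was narrow, at 337 TPM beside 327 TPM in replicate 1. In footprints, replicate 2 was the highest in both genotypes for 2 members, Fmr1 and Cyfip2, and the share over all genes was not computed. Replicate 2 stood at 1.52-fold the other libraries for Cyfip2 in KO and 2.02-fold in WT. For Fmr1 these values were 1.57-fold in KO and 1.05-fold in WT. The WT lead for Fmr1 was negligible, at 149.8 CPM beside 149.4 and 148.7 CPM in replicates 3 and 4. Only replicate 1, at 129 CPM, lay clearly lower. For Fxr1, replicate 2 stood at 0.872-fold in KO and 1.00-fold in WT.

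**Figure D4:**
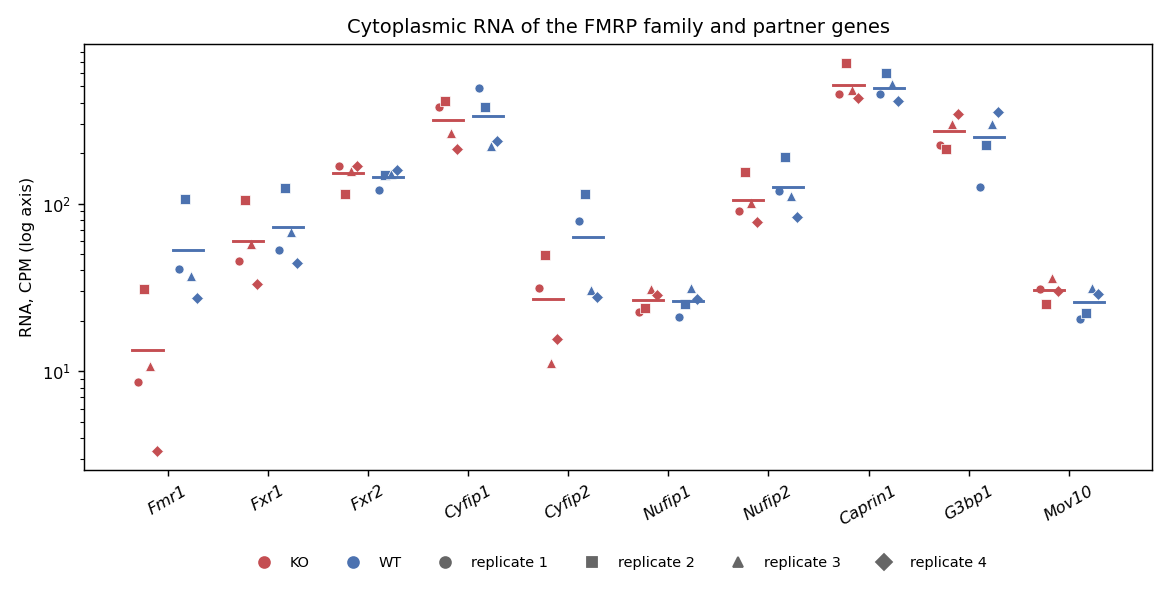
Cytoplasmic RNA of the 10 members in CPM (log axis), with KO libraries in red to the left and WT libraries in blue to the right of each gene. Points are libraries, shaped by replicate number, and bars are means of 4; the squares, replicate 2, are the highest points of both genotypes for Fmr1, Fxr1, Cyfip2, Nufip2 and Caprin1, with Fmr1 at 30.9 CPM in KO and 106.8 CPM in WT.

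Replicates 3 and 4 did not overlap replicates 1 and 2, over both genotypes, for 5 of the 10 members in footprints (31.6% of all genes) and for 4 in RNA (31.2% of all genes). In footprints these were Fxr1, Nufip1 and G3bp1, which were higher in replicates 3 and 4, and Cyfip1 and Nufip2, which were lower. In RNA they were Nufip1 and G3bp1, higher, and Cyfip1 and Cyfip2, lower. In footprints, the labels give these replicates different lengths of the unique molecular identifier, 5 nt in replicates 1 and 2 and 8 nt in 3 and 4, and that length was a term of the footprint tests. The split in RNA, to which no such label applies, went the same way for Nufip1, G3bp1 and Cyfip1.

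The genes most like Fmr1 across the 8 footprint libraries were Tle3 (Pearson's r = 0.96), Smtnl2 (0.95) and Nkx2-2 (0.93), by log2 CPM. Nkx2-2, which encodes a homeobox factor of the oligodendrocyte lineage, stood at 0.278 to 8.62 CPM in KO footprints and 32.7 to 49.6 CPM in WT footprints. Smtnl2 stood at 2.97 to 3.67 CPM in KO and 4.14 to 4.87 CPM in WT. Tle3, a corepressor gene, stood at 22.5 to 28.2 CPM in KO and 34.0 to 39.4 CPM in WT. Across the 8 RNA libraries they were Fam124a (0.95), Lpgat1 (0.94) and Plagl1 (0.94). Fam124a stood at 17.5 to 26.4 CPM in KO RNA and 23.0 to 27.8 CPM in WT RNA, and Lpgat1, which encodes a lysophospholipid acyltransferase, at 5.33 to 13.9 CPM in KO and 13.7 to 29.4 CPM in WT, so that the ranges of both overlapped. Plagl1, which encodes a zinc-finger factor, stood at 2.29 to 7.47 CPM in KO RNA and 7.99 to 13.7 CPM in WT RNA. The libraries of each assay share their genotypes and replicate numbers, and these values are descriptions over 8 points. Since Fmr1 was itself lower in KO, genes picked for likeness to it tend to be lower in KO through that choice. In the main edgeR tests, Fmr1 was the single gene called lower in KO footprints, and 0 genes were called lower in KO RNA.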

How the data were processed

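The authors deposited RSEM expected counts per gene, which are whole numbers in the table, and TPM without decimals, which is handled as a score and used for levels between genes. Per the submitters' processing notes, the tools were RSEM 1.2.11, TopHat2 2.0.9, Bowtie2 2.1.0, cutadapt 1.7.1, bedtools 2.22.0 and SAMtools 0.0.19, and the build mm10; strand use and the collapsing of identifiers are not stated there. Of 20436 rows, 27 held a bare number for a name (0.244% to 0.422% of a library's counts) and were left out; 19269 of 20409 symbols matched RefSeq. Counts were tested with edgeR 4.0.16 in R 4.3.3 (TMM, filterByExpr, glmQLFit, two-sided, Benjamini-Hochberg over all genes, threshold 0.05). Footprint fits hold the identifier length, and TE is the assay by genotype interaction over 16 libraries. An SE is the log2 fold change divided by the square root of F. The scripts were tested on simulated data. Alternatives used DESeq2 1.42.0, limma 3.58.1, other filters and left-out cultures. All 10 members passed the count filter in every comparison. Members and lists were chosen with earlier results of these data known. All members are described; from each other list, genes past the threshold or else those with the smallest p are named, and the 3 genes most like Fmr1 per assay. KO and WT were taken as pairs by the numbers in the sample titles. Deviations from group means correlated between same-numbered libraries at 0.481 to 0.613 in RNA and 0.379 to 0.54 in footprints, over 0.1 in each pair (other numbers: -0.542 to 0.368 and -0.456 to 0.453). The best match had the same number for 8 of 8 libraries in RNA and 7 of 8 in footprints, where the 2 ranges overlapped. The main tests held no term for these pairs. No pair of libraries held identical values. Depth limits the precision of low genes, and reads without identifiers are not independent molecules.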

Additional observations from a re-analysis of the deposited data

Results flagged for a closer look

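Of the members, 2 values stood apart from the other libraries of their group by a gap larger than Dixon's 95% limit for 4 values, out of 40 groups of 4 libraries examined. Chance alone gives about 1 in 20 such groups. Both are Fmr1 in WT libraries. WT footprint replicate 1 was low, at 129 CPM beside 148.7 to 149.7 CPM in the other WT footprint libraries; without that culture the log2 fold change of KO over WT was -3.08 (edgeR adjusted p = 0.00897). WT RNA replicate 2 was high, at 106.8 CPM beside 27.4 to 40.85 CPM in the other WT RNA libraries; without that culture the RNA log2 fold change was -1.39 (edgeR adjusted p = 1).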

How the results depend on the processing

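The 4 comparisons were repeated under other settings. In RNA, 152 of 170 member values kept their direction and their side of the threshold and 18 changed sign; in footprints these were 152 and 20 of 180, with 8 losses of the Fmr1 call; in TE they were 156 and 34 of 190. Footprints against RNA in WT reversed nowhere in 130 values, with 12 calls lost and 12 gained. The sign changes were of values that did not pass in either fit, and why they changed was not tested. With the replicate block, 0 genes passed in footprints in either direction, 0 members were lower there and 0 genes were higher in RNA; in WT footprints against RNA the block gave 4067 genes higher and 3798 lower and 2 members lower. It changed no other call of a member than those given with the results. The counts of genes called in footprints were 2 lower with RLE or without a filter, 3 lower with limma-voom, and 56 higher and 26 lower with DESeq2, which also gave 13 higher and 7 lower in RNA and 2 members lower in WT footprints against RNA. With limma-voom 0 genes were higher in RNA. With replicates 1 and 2 alone, 0 genes and 0 members passed in footprints and 0 genes were higher in RNA, and WT footprints against RNA gave 1079 genes higher, 1053 lower, 0 members higher and 1 member lower. With replicates 3 and 4 alone, 1 gene was higher in footprints, 0 in RNA, and 2 members were lower in WT footprints against RNA. An alternative chosen after seeing the data left out both cultures numbered 2: 0 genes and 0 members then passed in footprints and 0 genes were higher in RNA, and Fmr1 footprints stood at -3.10 (adjusted p = 0.283). KO cultures in place of WT, also chosen after seeing the data, gave 1 member lower. Across these settings of footprints against RNA, 1053 to 3798 of all genes were lower, beside 2369 in the main fit. The 0 to 2 members lower are thus not read as a trait of the members.

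Of the sign changes, Fxr2 TE was -0.0007 with RLE, -0.0092 without a filter, -0.0075 with a stricter filter and -0.0005 with DESeq2. G3bp1 TE was -0.0124 with limma-voom, -0.0111 with the replicate block and -0.0114 as a difference of log2 CPM per culture. With replicates 1 and 2 alone, Nufip1 was -0.006 in RNA, 0.0707 in footprints and 0.0795 in TE, and Nufip2 footprints 0.0063. With replicates 3 and 4 alone, RNA was 0.0583 for Cyfip1, -0.0281 for Caprin1 and -0.0173 for G3bp1. Footprints were then -0.0291 for Fxr1, 0.1606 for Cyfip2, -0.0906 for Caprin1, -0.0626 for G3bp1 and -0.0209 for Mov10, and TE -0.0607 for Cyfip1, -0.0564 for Caprin1 and -0.0394 for G3bp1. Without both cultures numbered 2, Caprin1 RNA was -0.015, Nufip1 footprints 0.1069, and TE -0.0743 for Fxr2, -0.0085 for Cyfip1 and 0.0635 for Nufip1.

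When each culture was left out in turn, 0 to 11 genes were higher and 0 to 3 lower in footprints, 0 to 1 members were lower, and 0 to 1 genes were higher in RNA. In WT footprints against RNA, 1646 to 2245 genes and 2 to 6 members were higher.
Log2 fold changes in RNA then ran from -0.0073 to 0.1849 for Fxr2, -0.2223 to 0.1833 for Cyfip1, -0.073 to 0.1169 for Nufip1, -0.1118 to 0.3182 for G3bp1, -0.6753 to 0.1275 for Fxr1, -0.487 to 0.0227 for Nufip2 and -0.1209 to 0.1615 for Caprin1.
Log2 fold changes in footprints then ran from -0.0148 to 0.1043 for Fxr1, -0.1176 to 0.0854 for Cyfip1, -0.0001 to 0.2257 for G3bp1, -0.1482 to 0.0886 for Nufip1 and -0.0769 to 0.255 for Mov10.
Log2 fold changes in TE then ran from -0.0966 to 0.2613 for Cyfip1, -0.0192 to 0.7553 for Fxr1, -0.185 to 0.0923 for Nufip1, -0.0465 to 0.4635 for Nufip2, -0.1208 to 0.1514 for Caprin1, -0.1366 to 0.2045 for G3bp1, -0.0965 to 0.0563 for Fxr2 and -0.3077 to 0.0143 for Mov10.
Depth limits the rarest members: Fmr1 had 22 to 186 counts in a KO RNA library.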
